A study of Mus musculus with 18 samples.

Results

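Epiblast-like cells (EpiLCs) were compared with the naive embryonic stem cells (ESCs) cultured in 2iL medium (2i/LIF), with 3 samples in each group, 6 of the 18 RNA-seq samples of the series. All genes were taken, and the 6 samples were chosen by their cell-type labels alone. Both groups are labelled as wild-type cells of strain 129S2/SvPasCrl, whereas the study describes the ESC, EpiLC and EpiSC lines of its RT-PCR assays as offspring of 129/sv females and GOF-GFP males of mixed background, and whether the same lines were sequenced is not stated. The protocol and the duration of EpiLC induction are not given in the sources used here, and how many lines the samples represent is not given either. Epiblast stem cells (EpiSCs, 3 samples of the same labelled strain and genotype) were used to place listed genes. Whether EpiSCs and EpiLCs shared lines is not stated, so EpiSC levels compare cultures and do not follow a course in time. The EpiSCs and the other 9 samples also entered the filter on low counts, the normalization and the estimate of the spread between replicates. With them 16901 genes were tested, against 14670 in a fit of only the 6 samples. The study calls the RNA-seq samples of a group biological replicates, and neither it nor the labels say whether they were separate lines or cultures of 1 line, so the p-values measure the spread between these samples.

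Naive ESCs are cultured forms of the epiblast of the blastocyst before implantation, and in 2i/LIF they are kept there by inhibition of MEK and GSK3 together with the cytokine LIF. MEK inhibition blocks the FGF-ERK pathway, GSK3 inhibition mimics a Wnt signal, and LIF acts through STAT3 on naive transcription factors such as KLF4 and TFCP2L1. EpiLCs are obtained when naive ESCs leave that medium for activin and FGF, and are used as a cultured counterpart of the formative epiblast just after implantation, the stage from which primordial germ cells can be induced. EpiSCs stand for a later, primed epiblast.

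Fragments were counted per gene, in total 4961934, 7785262 and 8077252 for ESC replicates 1, 2 and 3 and 8793127, 9906473 and 8343111 for the EpiLC replicates. Replicate 1 of each group stood apart from the other two. The chi-square per degree of freedom between counts of replicates 2 and 3 was 1.65 for ESCs and 2.29 for EpiLCs, whereas replicate 1 differed from the others by 36.8 and 37.6 in ESCs and by 21.5 and 25.0 in EpiLCs. The mitochondrial share of counts was 8.08% in ESC replicate 1 against 2.70% and 2.92%, and 4.31% in EpiLC replicate 1 against 2.76% and 2.64%. Counts of genes are therefore given with and without both of these libraries, and the level in every sample is printed for the genes the results turn on.

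Levels are normalized read counts per kb, which are counts divided by a DESeq2 size factor and by exonic length in kb, printed in the order of replicates 1, 2 and 3. Differences are log2 fold changes of EpiLCs against ESCs from edgeR's quasi-likelihood test, with p-values adjusted over all 16901 genes tested by Benjamini-Hochberg. The standard error (SE) printed with them is not returned by that test. It was derived as the size of the log2 fold change divided by the square root of the F statistic, and is approximate for genes with few counts. A gene is called higher or lower at an adjusted p below 0.05, and strong if its log2 fold change is also beyond 2 and its mean log2(level + 0.1) exceeds 3 in either group.

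The labels were checked against marker genes. The naive and formative markers also belong to longer lists described below, chosen with earlier results of these data known, so they are no independent check. In those lists all 14 naive factors were lower, and naive marker genes were lower at 18 and higher at 4. Formative and primed factors were higher at 14 and lower at 1, and formative and primed marker genes higher at 17 and lower at 2. Of the 10 naive markers, 10 were lower in EpiLCs, and their summed level ranged from 9296 to 10510.0 over ESC samples and from 715 to 831 over EpiLC samples. Of the 8 formative markers, 8 were higher in EpiLCs, and their summed level was 330.1 to 344 in ESCs and 4750.0 to 5377 in EpiLCs. *Fgf5* was the only one of these 18 markers without a single count in a group, the ESCs. Markers of primitive streak, endoderm, trophoblast and fibroblast feeders were low by comparison, at a summed 193 to 230.4, 6.92 to 8.52, 77.4 to 116 and 33.8 to 92.8 in ESCs and 19.9 to 28.8, 12.8 to 14.8, 1.38 to 3.02 and 65.7 to 83.4 in EpiLCs. In bulk RNA, fewer cells of a type and less RNA per cell cannot be told apart.

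EpiLCs and ESCs differed at most of the genes tested. Of 16901 genes, 4845 (28.7%) were called higher in EpiLCs and 4494 (26.6%) lower, together 55.3%. These shares are the background for the counts of every gene list below. Strong differences were found for 1007 genes (5.96%) that were higher and 1060 genes (6.27%) that were lower. Without replicate 1 of both groups, 4245 genes were called higher and 4244 lower, of which 1034 and 1025 were strong. The median log2 fold change over all genes tested was 0.06. The highest and lowest levels of the groups did not overlap for 10184 genes (60.3%), and for 1003 of the strong higher and 1054 of the strong lower genes. No count was found in any ESC library for 51 of the strong higher genes, and none in any EpiLC library for 38 of the strong lower genes. Protein-coding genes made up 877 of the strong higher and 897 of the strong lower genes.

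**Figure D1:**
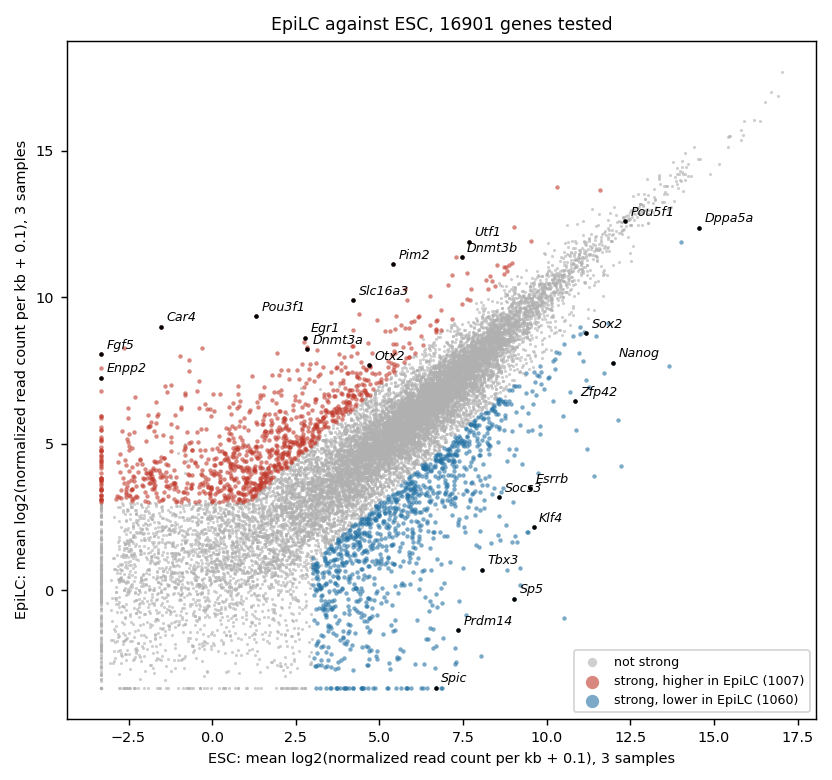
Mean log2(normalized read count per kb + 0.1) of the 3 EpiLC samples (vertical axis) against the 3 ESC samples (horizontal axis) for the 16901 genes tested, with strong genes coloured (1007 higher, 1060 lower in EpiLCs) and selected genes labelled in black. *Fgf5* and *Enpp2* lie on the left edge, with 0 counts in ESCs, *Spic* lies on the bottom edge, with 0 counts in EpiLCs, and *Pou5f1* lies near the diagonal.

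The 15 strong genes with the highest fold change and no overlap between groups were mostly genes without a single ESC count. *Fgf5*, the growth factor that marks the early postimplantation epiblast, had 0 counts in all 3 ESC samples and levels of 252, 259 and 287 in EpiLCs, at least 502-fold higher when the ESC group is set at a floor of 3 counts. The same bound gave at least 402-fold for *Enpp2*, which encodes autotaxin, a secreted enzyme that makes lysophosphatidic acid, with EpiLC levels of 177, 154 and 131. *Tmem54* reached 216, 190.4 and 174 (at least 178-fold) and *Bcl11a*, a zinc finger repressor, 12.4, 14.5 and 15.4 (at least 141-fold). Also at 0 counts in every ESC sample were *Gfra1*, a co-receptor for GDNF (at least 89.9-fold), the insulin receptor substrate *Irs4* (at least 86.5-fold), *Jakmip2* (at least 63.1-fold), *Tmem154* (at least 48.7-fold), *Gm26953* (at least 50.2-fold), *Ccdc194* (at least 48.1-fold), *Rbbp8nl* (at least 48.1-fold) and *Il10*, an anti-inflammatory cytokine (at least 43.8-fold). *Il10* had EpiLC levels of 56.5, 37.8 and 40.9 and 0 counts in every EpiSC sample. The other 3 had a few fragments in ESCs. *Vrtn* rose to 280.5, 319 and 325, a ratio of normalized counts of 2530.0 (95% interval 454 to 99961), an interval that covers counting error only. *Cntfr*, the receptor subunit for ciliary neurotrophic factor, had a ratio of 625 (95% interval 112 to 24715), and *Car4*, a membrane-bound carbonic anhydrase, rose from 4.01, 0 and 0 to 536, 508 and 489.9 (adjusted p = 2.1e-12).

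The 15 genes at the other end had 0 counts in all EpiLC samples or a single fragment. *Spic*, an ETS-family factor, had levels of 120.5, 99.4 and 89.5 in ESCs and none in EpiLCs, at least 376-fold lower. *Bhmt*, which remethylates homocysteine with betaine, stood at 62.9, 54.4 and 49.9 in ESCs (at least 295-fold lower in EpiLCs) and *Pramel7* at 112, 68.7 and 83.6 (at least 176-fold). Genes better known from blood cells were among them, namely the G-CSF receptor gene *Csf3r* at 82.4, 42.6 and 52.5 (at least 196-fold), *Cd3g* of the T-cell receptor complex at 114, 74.0 and 52.1 (at least 77.7-fold) and the lectin gene *Clec4a1* at 46.8, 35.9 and 53.7 (at least 69.0-fold). The nuclear body gene *Sp100* (at least 85.9-fold), the nicotinamide methyltransferase gene *Nnmt* (at least 75.9-fold), *Mobp* (at least 114-fold), *Srarp* (at least 100.5-fold), *Stk33* (at least 75.9-fold) and *2300002M23Rik* (at least 162-fold) also had no EpiLC count. A single EpiLC fragment was counted for *Ly6g6e*, *Tlx1* and *Khdc1c*, whose ratios of ESC to EpiLC were 966 (95% interval 173 to 38192), 957 (95% interval 171 to 37834) and 875 (95% interval 156 to 34613). In each of these 30 genes the 3 samples of the higher group all lay above the 3 of the lower group, which the choice of the genes required.

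**Figure D2:**
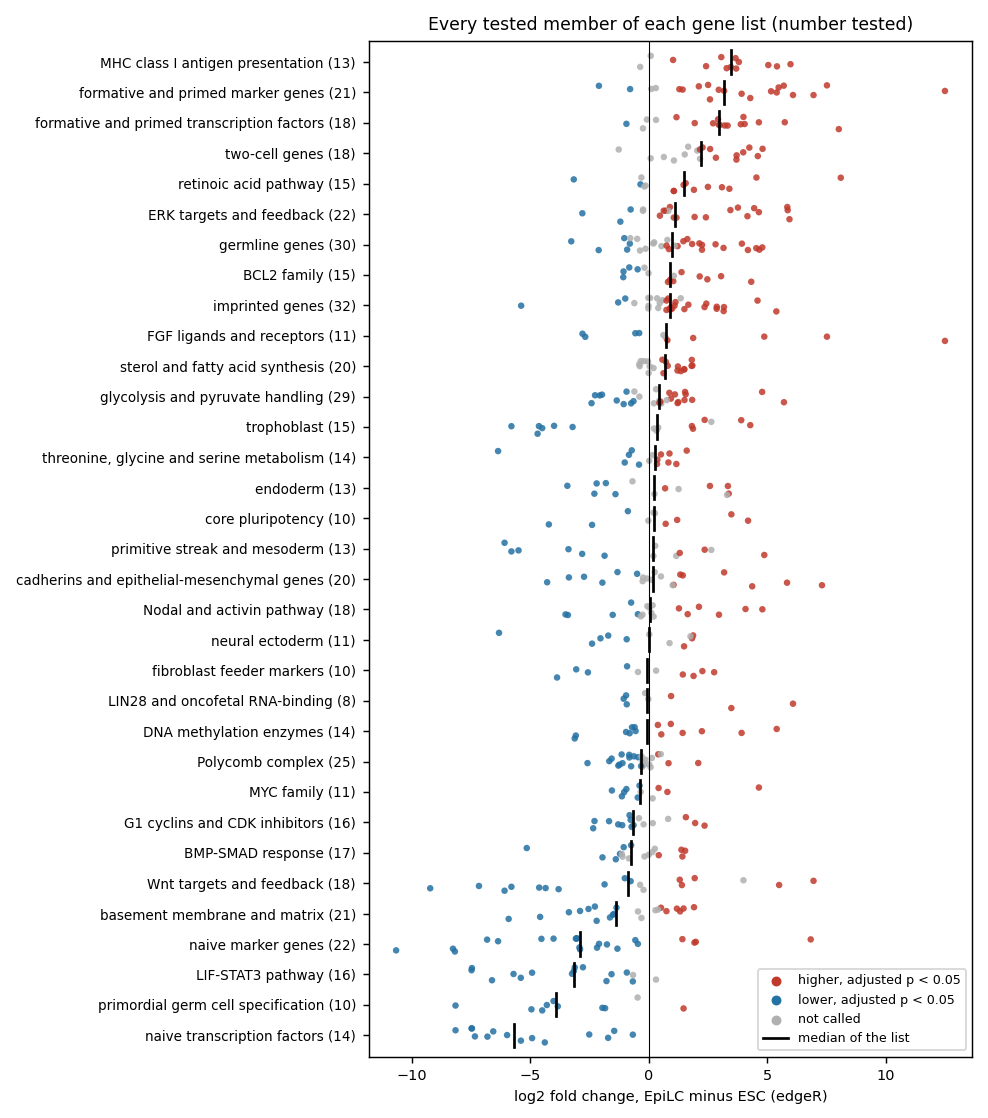
Log2 fold change of EpiLCs against ESCs (horizontal axis) for every tested member of 33 of the 34 gene lists (number tested in parentheses; the list of X inactivation and Y-linked genes is not drawn), coloured by whether the member was called, with a black line at the list's median. Naive transcription factors lie lowest, at a median of -5.69, and MHC class I genes highest, at 3.47.

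The naive transcription factors fell together. All 14 of the listed factors were called lower in EpiLCs and 11 of them strongly, with a median log2 fold change of -5.69. *Esrrb*, an orphan nuclear receptor that activates naive genes, stood at 596, 802 and 806 in ESCs and 8.22, 14.8 and 11.5 in EpiLCs (log2 fold change -5.98 ± 0.26, adjusted p = 7.0e-13). *Tfcp2l1*, a factor downstream of STAT3, went from 492, 796 and 842 to 2.82, 4.87 and 4.20 (-7.46 ± 0.28, adjusted p = 1.1e-13), and *Klf4* from 666, 873 and 821 to 4.55, 4.64 and 3.86 (-7.48 ± 0.19, adjusted p = 9.7e-16). The lowest remaining level belonged to *Prdm14*, a regulator that restrains FGF signalling and DNA methylation, at 146, 165 and 181 against 0, 1.03 and 0.417 (-8.15 ± 0.31, adjusted p = 8.6e-13). *Tbx3* fell 162-fold, *Nr5a2* 112-fold, *Tcl1* 94.5-fold, *Klf2* 42.1-fold and *Klf5* 30.3-fold. *Zfp42* (Rex1), the common reporter gene for the exit from the naive state, kept levels of 104, 84.7 and 76.2 against 1652, 1934 and 1961 in ESCs (-4.39 ± 0.18). No *Zfp42* count was found in EpiSCs. Likewise *Nr0b1* fell 5.70-fold to 70.9, 53.8 and 72.8 in EpiLCs and had 0 counts in EpiSCs. The smallest changes of the list were those of *Gbx2* (-0.67 ± 0.21, adjusted p = 0.011), *Mybl2* (-1.46 ± 0.17) and *Sox15* (-1.71 ± 0.31). *Gbx2* stood at 128, 128 and 133 in ESCs and 87.6, 78.0 and 78.2 in EpiLCs, so that its groups did not overlap although the difference was small.

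Naive marker genes that are not transcription factors behaved less uniformly. Of 22, 18 were called lower and 4 higher, with a median of -2.91. *Tdh*, threonine dehydrogenase, which mouse ESCs depend on, fell from 2010.3, 2541 and 2516 to 26.9, 25.4 and 33.6 (-6.36 ± 0.19, adjusted p = 9.9e-15). *Dppa3* (Stella), a maternal factor that protects methylation at imprinted genes, fell from 3580.3, 1992 and 1743 to 205, 118 and 127 (-4.02 ± 0.29, adjusted p = 1.1e-09), with replicate 1 the highest of each group. The adhesion gene *Jam2* fell 113-fold, the subcortical maternal complex gene *Khdc3* 290.2-fold and the F-box gene *Fbxo15* 23.1-fold. *Dppa5a* remained among the more abundant transcripts of EpiLCs at 5383, 4995 and 5534, against 24235, 24117 and 24127 in ESCs (-2.18 ± 0.19), and stood at 0, 1.42 and 1.54 in EpiSCs. The change of *Fgf4* (-0.56 ± 0.12) and *Gdf3* (-0.46 ± 0.18, adjusted p = 0.039) was small, from 720.4, 603 and 680.5 to 449.5, 450.5 and 448 and from 429, 309.8 and 316 to 272, 271 and 219. *Gdf3* lost its call without ESC replicate 1 (-0.31), EpiLC replicate 2 (-0.51) or EpiLC replicate 3 (-0.36), and without replicate 1 of both groups (-0.37). The 4 that went the other way were *Dppa2*, *Dppa4*, *Bmp4* and *Nat8l*. *Dppa2* and *Dppa4*, which encode partner proteins that mark bivalent promoters, rose from 118, 117 and 113 to 487, 436 and 454 (1.99 ± 0.15) and from 299, 216 and 204 to 1066, 822 and 820.4 (1.93 ± 0.17). In EpiSCs both were nearly silent, at 2.02, 3.62 and 1.96 and 1.71, 1.72 and 4.98. *Bmp4* rose from 7.97, 4.71 and 7.52 to 21.8, 17.1 and 14.4 (1.42 ± 0.27). *Nat8l*, which makes N-acetylaspartate, had a single ESC fragment and EpiLC levels of 6.93, 11.1 and 10.3, a ratio of 145 (95% interval 25.8 to 5767).

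The core factors split 3 ways. Of 10 genes, 4 were called higher, 3 lower and 3 were not called, against 28.7% higher and 26.6% lower over all genes tested. *Pou5f1* (Oct4) stood at 5073, 5424 and 5159 in ESCs and 7155, 5637 and 5924 in EpiLCs, a log2 difference of 0.26 that did not pass the test (adjusted p = 0.26), although the 2 groups did not overlap. *Nanog* fell from 4967, 3671 and 3688 to 263, 192 and 204 (-4.21 ± 0.18, adjusted p = 5.7e-13) and *Sox2* from 2691, 2191 and 2107 to 539, 378 and 410.0 (-2.39 ± 0.19, adjusted p = 2.7e-09). In EpiSCs *Nanog* was higher than in EpiLCs (1619, 1284 and 1534, log2 difference 2.73 ± 0.17) and *Sox2* lower (85.5, 67.3 and 75.6, -2.56 ± 0.20). *Utf1*, a chromatin factor of pluripotent cells, rose from 165, 228 and 230.0 to 3966, 3667 and 3839 (4.20 ± 0.24, adjusted p = 2.4e-11) and was at 163, 184 and 167 in EpiSCs. *Lin28a*, which blocks maturation of let-7, rose 11.2-fold, *L1td1* 2.30-fold and *Zfp281* 1.64-fold, and *Sall4* fell 1.84-fold. The RNA-binding ubiquitin ligase gene *Trim71* (197, 210.3 and 217 against 207, 205 and 203) and the Nodal co-receptor gene *Tdgf1* (723, 574 and 609 against 709, 786 and 691) were not called.

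Formative and primed transcription factors rose in the reverse pattern. Of 18, 14 were called higher, 1 lower and 3 were not called, with a median of 2.98. *Pou3f1* (Oct6), a POU factor of the early postimplantation epiblast, went from 2.05, 2.12 and 3.19 to 550.0, 677 and 760.1 (8.03 ± 0.25, adjusted p = 1.5e-14), and stood at 30.3, 47.4 and 35.5 in EpiSCs. *Otx2*, a homeobox factor that redirects OCT4 to new enhancers, rose from 27.2, 24.0 and 25.9 to 214, 194 and 208 (3.0 ± 0.14, adjusted p = 2.6e-12). *Sox3* rose from 6.67, 7.89 and 5.40 to 359, 346 and 370.0 (5.75 ± 0.23) and stood at 977, 1104 and 1066 in EpiSCs. *Myc* rose 25.1-fold, *Hes6* 16.6-fold, *Sox4* 16.0-fold, *Sall2* 14.8-fold, *Zic5* 10.1-fold and *Zic2* 9.25-fold. *Tcf15*, a bHLH factor tied to priming, rose from 54.2, 45.1 and 36.4 to 448, 274 and 316 (2.96 ± 0.39). The epithelial factor *Grhl2* rose 6.58-fold. *Rbpj*, the DNA-binding partner of Notch, was the member called lower (65.8, 110.4 and 111 against 36.1, 56.0 and 57.6, -0.94 ± 0.19). *Foxd3* and *Etv5* were among those not called, at 173, 167 and 170.4 against 197, 204 and 228 and 655, 947 and 921 against 607, 738 and 783. *Foxd3* was called higher with the replicate block (0.31, adjusted p = 0.039), by DESeq2 (0.30) and with at least 10 counts in every sample (0.35).

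Marker genes of the formative and primed states followed. Of 21, 17 were called higher, 2 lower and 2 were not called, with a median of 3.18. *Lin28b*, the second LIN28 gene, rose from 0.729, 0.862 and 1.03 to 60.7, 67.3 and 59.4 (6.09 ± 0.43, adjusted p = 5.4e-10). *Fgf15* rose from 1.93, 0.381 and 0.365 to 162, 140.0 and 121 (7.53 ± 0.33), the kinase gene *Pim2* from 33.1, 50.4 and 45.1 to 2232, 2206 and 2331 (5.70 ± 0.25) and the Wnt ligand gene *Wnt8a* from 2.25, 0.667 and 0 to 106, 111 and 90.7, a ratio of 136 (95% interval 46.3 to 661). *Enpp3* rose 44.9-fold, *Sema6a* 35.9-fold, *Krt18* 19.6-fold, the tight junction gene *Cldn6* 9.09-fold and the neurofilament gene *Ina* 7.77-fold. Some markers of the list were not called higher. N-cadherin, *Cdh2*, was not called (4.15, 2.45 and 2.63 against 4.58, 3.07 and 1.99) and stood at 49.1, 51.5 and 47.7 in EpiSCs. *Tead2* was not called either (306, 315 and 322 against 376, 384 and 399), and *Ncam1* and *Epha2* were lower in EpiLCs (-2.10 ± 0.40 and -0.78 ± 0.18). *Tead2* was called higher with the replicate block (0.30, adjusted p = 0.038), by DESeq2 (0.30) and with at least 10 counts in every sample (0.34).

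**Figure D3:**
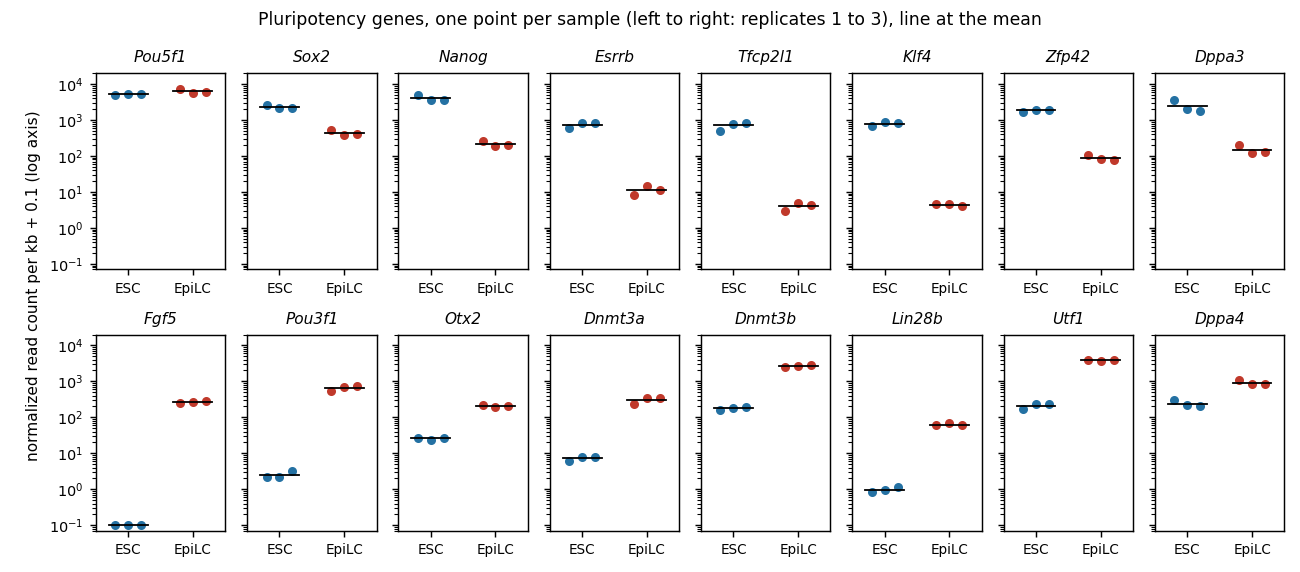
Normalized read count per kb + 0.1 on a log axis for 16 pluripotency genes, with 1 point per sample (3 ESC samples in blue, 3 EpiLC samples in red) and a line at the group mean. The groups do not overlap in any of the panels, naive genes lie lower and formative genes higher in EpiLCs, and *Pou5f1* lies between 5073 and 7155 in all 6 samples.

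Most of the LIF-STAT3 list was lower in EpiLCs. Of 16 members, 14 were called lower, 2 were not called and none was called higher, with a median of -3.14. The receptor genes fell, *Lifr* from 46.7, 32.8 and 38.4 to 5.14, 3.77 and 4.56 (-3.12 ± 0.23) and *Il6st* (gp130) from 102, 70.0 and 83.8 to 9.58, 8.77 and 10.1 (-3.16 ± 0.25). So did *Stat3* itself, from 64.5, 115 and 119 to 9.58, 11.0 and 11.1 (-3.24 ± 0.21, adjusted p = 1.6e-10). The direct target and feedback inhibitor *Socs3* fell from 386, 393 and 365 to 8.79, 9.49 and 8.51 (-5.40 ± 0.18, adjusted p = 3.3e-14) and *Bcl3* from 371, 366 and 379 to 5.13, 3.57 and 2.59 (-6.62 ± 0.30, adjusted p = 1.3e-12). *Pim1* fell 6.84-fold, *Pim3* 2.97-fold and *Junb* 1.90-fold. *Socs2* (53.5, 48.7 and 47.0 against 75.5, 51.1 and 57.5) and *Cish* (3.99, 7.07 and 7.82 against 2.70, 5.38 and 4.001), feedback genes best known from STAT5, were not called, though *Cish* was called lower without ESC replicate 1 (-0.87), EpiLC replicate 2 (-0.94) or replicate 1 of both groups (-0.68), and with RLE factors (-0.67). In this list *Klf4*, *Klf5*, *Tfcp2l1* and *Gbx2* are also naive factors counted above.

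Wnt target and feedback genes were lower more often than higher. Of 18, 10 were called lower, 5 higher and 3 were not called, with a median of -0.88. *Sp5*, an immediate target of beta-catenin, went from 505, 515 and 545 to 1.65, 0.421 and 0.510 (-9.22 ± 0.33, adjusted p = 6.8e-14) and stood at 195, 184 and 191 in EpiSCs. The feedback genes *Axin2* (185, 226 and 216 against 6.50, 9.48 and 9.13, -4.62 ± 0.20), *Notum* (653, 454 and 506 against 3.36, 4.78 and 2.67, -7.17 ± 0.23) and *Rnf43* (-4.35 ± 0.35) fell, and the homeobox targets *Cdx1* (-6.08 ± 0.33) and *Cdx2* (-5.79 ± 0.39) fell with them. *T* (brachyury) fell from 18.7, 21.6 and 22.2 to 4.99, 6.50 and 5.55 (-1.86 ± 0.31, adjusted p = 3.9e-05) and stood at 400.2, 426 and 424 in EpiSCs. On the other side, the receptor gene *Fzd7* rose from 9.12, 6.42 and 5.91 to 298, 337 and 308 (5.51 ± 0.22, adjusted p = 2.6e-13), *Lef1* from 22.2, 19.5 and 18.9 to 60.9, 80.4 and 89.4 (1.94 ± 0.16) and *Wnt3* and *Nkd1* by 1.31 ± 0.34 and 1.40 ± 0.28. *Tcf7l1*, the repressor that opposes naive genes, was itself 2.01-fold lower in EpiLCs.

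Targets and feedback inhibitors of ERK signalling rose. Of 22, 16 were called higher, 3 lower and 3 were not called, with a median of 1.12, or 0.98 with members lacking ESC counts set at their lower bound. *Egr1*, an immediate early gene, rose from 7.03, 7.79 and 5.72 to 402, 402 and 378 (5.85 ± 0.16, adjusted p = 2.5e-15), the ERK phosphatase gene *Dusp6* from 24.6, 16.2 and 15.6 to 358, 306 and 321 (4.17 ± 0.16, adjusted p = 1.7e-13), and *Dusp4* from 1.44, 1.27 and 1.22 to 59.0, 88.1 and 85.1 (5.87 ± 0.48). *Spry4* rose from 0.429, 1.52 and 1.22 to 51.1, 82.9 and 81.7 (5.94 ± 0.28, adjusted p = 2.2e-12) and *Spry1* 13.6-fold. *Spry2*, of the same Sprouty family of feedback inhibitors, was lower in EpiLCs (368, 416 and 401 against 165, 163 and 188, -1.20 ± 0.11, adjusted p = 2.3e-08), as were *Dusp14* (278, 227 and 222 against 45.1, 28.6 and 30.3, -2.80 ± 0.20) and *Ccnd1* (-0.76 ± 0.13). *Fos* rose 10.9-fold, *Spred3* 5.33-fold and *Etv4* 2.25-fold, while *Etv5* and *Il17rd* were not called. Among 11 FGF ligand and receptor genes, 5 were called higher and 4 lower, against 28.7% and 26.6% of all genes tested. Without ESC replicate 1, without EpiLC replicate 2, and in the fit of only the 6 samples, 3 were called higher. *Fgf8* rose from 7.29, 3.45 and 1.65 to 133, 87.8 and 109 (4.88 ± 0.39) and stood at 2466, 1884 and 2284 in EpiSCs, whereas *Fgf3* fell from 74.5, 59.0 and 55.1 to 8.45, 10.3 and 7.82 (-2.79 ± 0.22). The main receptor gene of the epiblast, *Fgfr1*, differed little (135, 110.2 and 112 against 84.4, 95.3 and 88.9, -0.40 ± 0.15, adjusted p = 0.031). It lost its call without ESC replicate 1 (-0.32), EpiLC replicate 1 (-0.37) or EpiLC replicate 3 (-0.39). The same held without replicate 1 of both groups (-0.29) and with at least 10 counts in every sample (-0.36). *Fgfrl1*, a receptor-like gene without a kinase domain, fell 6.39-fold.

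**Figure D4:**
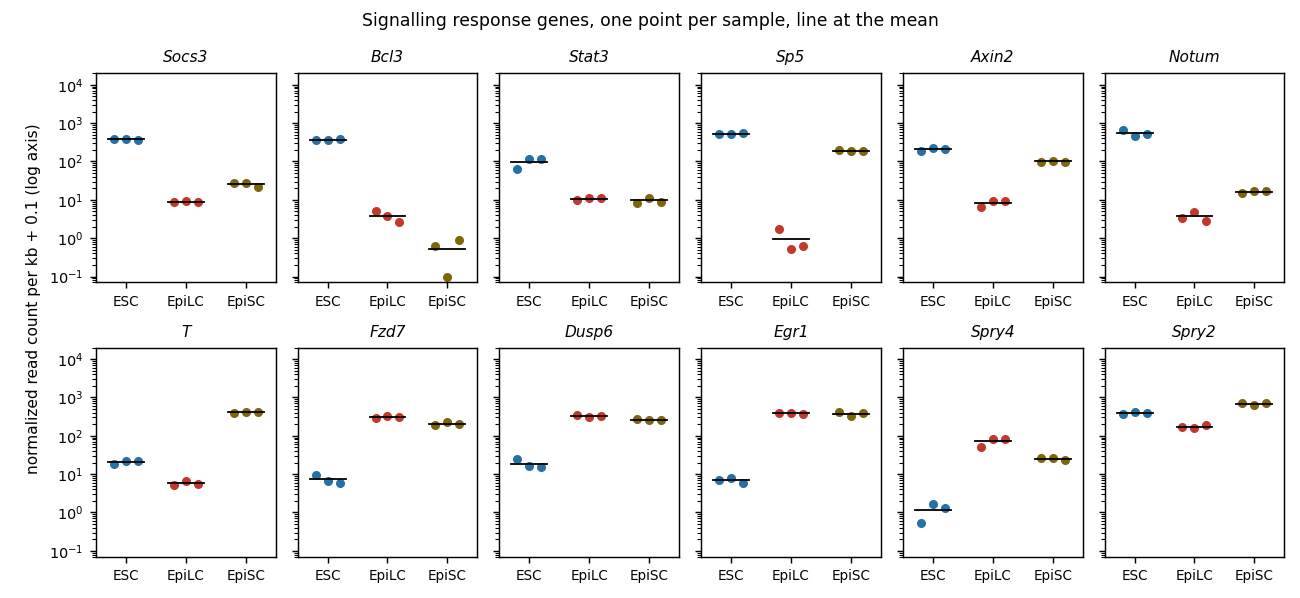
Normalized read count per kb + 0.1 on a log axis for 12 response genes of LIF-STAT3, Wnt and ERK signalling in ESCs, EpiLCs and EpiSCs, with 1 point per sample and a line at the mean of 3. *Sp5* falls from above 500 in ESCs to below 2 in EpiLCs and lies above 180 in EpiSCs, and *Spry2* is lower and *Spry4* higher in EpiLCs than in ESCs.

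Nodal pathway genes showed no common direction. Of 18, 6 were called higher, 5 lower and 7 were not called, shares near the 28.7% and 26.6% of all genes tested, with a median of 0.07. *Nodal* itself was not called (334, 220.5 and 262 against 349, 294 and 264). *Lefty1*, a feedback inhibitor and target, rose from 200.5, 113 and 164 to 2896, 2816 and 2299 (4.09 ± 0.19, adjusted p = 2.1e-12), while its neighbour *Lefty2* was not called (512, 329 and 376 against 444, 427 and 362). The corepressor gene *Skil* rose 7.82-fold, *Gdf1* 4.35-fold and *Foxh1*, the SMAD2 partner, 2.42-fold. The proprotein convertase gene *Pcsk6* fell 10.6-fold and the type I receptor gene *Acvr1b* 2.87-fold. Of 17 tested BMP-SMAD genes of 18 listed, 4 were called higher and 6 lower, against 28.7% and 26.6% of all genes tested. *Id4* fell from 84.2, 65.9 and 57.8 to 2.78, 1.07 and 1.93 (-5.15 ± 0.30), *Id1* fell 2.32-fold and *Id2* 2.08-fold, and *Id3* went the other way, from 18.7, 42.2 and 33.6 to 98.1, 95.8 and 90.2 (1.54 ± 0.23, adjusted p = 1.1e-05).

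Genes of the germ layers changed in both directions. This is not particular to these lists, since 28.7% of all genes tested were called higher and 26.6% lower. In the streak and mesoderm list 13 of 18 genes were tested, of which 3 were called higher and 6 lower; without EpiLC replicate 1, 5 were called higher. *Eomes* rose from 1.90, 2.52 and 2.69 to 10.3, 14.9 and 12.4 (2.36 ± 0.28), far under its EpiSC level of 448, 502 and 467. *Gsc*, an organizer homeobox gene, fell from 208, 166 and 190.0 to 3.65, 2.79 and 5.91 (-5.50 ± 0.30, adjusted p = 1.2e-11) and stood at 852, 709.6 and 974 in EpiSCs. In the endoderm list, with 13 of 16 tested, 4 were called higher and 5 lower, and in the fit of only the 6 samples compared 1 was called higher. *Foxa2* rose from 0, 0.982 and 1.41 to 10.7, 10.4 and 9.03 (3.38 ± 0.39) and *Cxcr4* and *Hhex* fell (-2.29 ± 0.46 and -1.81 ± 0.24). In the neural list, with 11 of 16 tested, 3 were called higher and 5 lower. *Sox1*, the earliest neural plate SOX gene, rose from 3.26, 2.89 and 1.62 to 8.13, 11.5 and 7.75 (1.88 ± 0.41), and *Lhx2* fell (-2.39 ± 0.44).

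Trophoblast and fibroblast genes also changed in both directions, beside 28.7% higher and 26.6% lower over all genes tested. With 15 of 17 trophoblast genes tested, 5 were called higher and 6 lower. The 6 lower ones were all transcription factors, *Tfap2c* (290.1, 258 and 264 against 13.2, 11.3 and 11.3, -4.50 ± 0.14), *Tfap2a* (-3.99 ± 0.32), *Tead4* (47.6, 60.5 and 83.1 against 1.93, 3.20 and 2.08, -4.69 ± 0.26), *Cdx2*, *Gata2* (-3.21 ± 0.34) and *Gata3*, which went from 5.94, 4.39 and 4.77 to 2 EpiLC fragments over the group, a ratio of 28.5 (95% interval 7.43 to 242). The higher ones included the simple keratins *Krt7*, *Krt8* and *Krt18*, with *Krt8* going from 37.1, 28.4 and 22.9 to 111, 100 and 93.7 (1.82 ± 0.17), besides *Eomes* and *Gcm1*, a labyrinth factor with EpiLC levels of 9.09, 6.09 and 6.84 and a ratio of 16.6 (95% interval 4.33 to 142). Fibroblast genes were tested for 10 of 14, with 4 called higher and 4 lower. *Col1a1* (29.4, 14.4 and 23.3 against 0.704, 4.58 and 5.54, -2.56 ± 0.44) and *Col3a1* (17.9, 6.05 and 9.77 against 0.235, 0.451 and 1.53, -3.87 ± 0.51) were lower in EpiLCs, and *Dcn* (25.5, 5.58 and 12.3 against 79.8, 59.4 and 54.4, 2.27 ± 0.39) and *Thy1* (7.94, 8.05 and 3.86 against 42.6, 43.3 and 45.6, 2.76 ± 0.26) higher. In ESCs the collagens and *Dcn* were highest in replicate 1. The part of carried-over fibroblasts in these values was not tested.

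DNA methylation genes changed in both directions, 7 higher and 7 lower of 14, against 28.7% and 26.6% of all genes tested. The de novo methyltransferase genes rose, *Dnmt3a* from 5.92, 7.76 and 7.71 to 241, 334 and 338 (5.40 ± 0.19, adjusted p = 3.8e-14) and *Dnmt3b* from 157, 181 and 189 to 2442, 2748 and 2789 (3.92 ± 0.16, adjusted p = 2.6e-13), together with their cofactor *Dnmt3l* (103, 180.3 and 169 against 386, 408 and 432, 1.43 ± 0.19). *Dnmt3l* was absent or nearly so from EpiSCs (0.439, 0.295 and 0). The maintenance genes *Dnmt1* (426, 534 and 529.8 against 302, 342 and 339.9, -0.59 ± 0.12) and *Uhrf1* (-0.80 ± 0.18) were lower. The oxidases, which start active demethylation, went different ways, with *Tet2* falling from 51.6, 48.3 and 53.1 to 5.14, 7.13 and 5.08 (-3.12 ± 0.22, adjusted p = 7.3e-10), *Tet3* rising from 2.24, 2.23 and 3.14 to 8.72, 13.4 and 14.3 (2.25 ± 0.23) and *Tet1* differing little (-0.55 ± 0.23, adjusted p = 0.045). The call of *Tet1* was lost without any one of the ESC replicates, EpiLC replicate 1 or EpiLC replicate 3, at -0.57 to -0.49. It was also lost without replicate 1 of both groups and with at least 10 counts in every sample, at -0.51 in each. *Zfp57*, which guards methylation at imprinted regions, fell 8.43-fold and its partner gene *Trim28* 1.94-fold. Of 25 Polycomb genes, 13 were called lower and 3 higher. Among the PRC2 core genes, *Suz12* fell from 825, 803 and 799.7 to 247, 256 and 259.5 (-1.66 ± 0.16, adjusted p = 3.7e-08) and *Eed* 1.76-fold, and *Ezh2* was not called (168, 227 and 226 against 177, 175 and 194). *Cbx8* fell 5.99-fold, and *Phf19*, an accessory PRC2 subunit, rose 4.26-fold from low levels.

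Germline genes rose in EpiLCs more often than they fell, and most were lower in EpiSCs than in EpiLCs. These genes of meiosis and the piRNA pathway are normally kept silent in somatic cells by promoter methylation and by E2F6 and PRC1.6, a Polycomb complex whose MGA-MAX dimer recognizes the E-box CACGTG. Of 30 listed genes, all tested, 16 were called higher, 5 lower and 9 were not called, with a median of 0.98. Over all genes tested, 28.7% were called higher and 26.6% lower. *Mael*, a piRNA factor, rose from 4.54, 4.70 and 3.22 to 124, 108 and 114 (4.80 ± 0.29, adjusted p = 3.2e-10), and *Taf7l*, an X-linked TFIID subunit of germ cells, from 2.63, 3.63 and 3.98 to 95.2, 89.5 and 88.2 (4.67 ± 0.24, adjusted p = 4.1e-11). *Sycp1*, of the synaptonemal complex, rose from 10.5, 5.89 and 6.90 to 64.7, 46.5 and 48.1 (2.82 ± 0.31), *Slc25a31*, the testis ADP/ATP carrier, from 2.78, 1.64 and 3.15 to 26.1, 19.12 and 23.1 (3.16 ± 0.37), the helicase gene *Ddx4* (Vasa) from 4.15, 7.76 and 7.83 to 31.6, 32.6 and 34.2 (2.25 ± 0.25) and *Tdrd1* from 1.08, 0.214 and 0.410 to 6.37, 12.7 and 8.65 (4.19 ± 0.52). *Sycp3* rose 2.33-fold, and its replicate 1 was the highest of both groups (103, 37.8 and 41.5 against 184, 104 and 116, adjusted p = 0.005). Those called lower were *Dazl* (576, 361 and 359.8 against 51.8, 39.1 and 42.6, -3.27 ± 0.19, adjusted p = 1.8e-10), *Rpl10l* (-2.11 ± 0.19), *Stag3* (-0.80 ± 0.15), *Rhox2a* (-1.03 ± 0.28) and *Rhox9* (-0.91 ± 0.33), of which *Rpl10l* and the *Rhox* genes can share fragments with near-identical copies. *Rhox9* lost its call without ESC replicate 1, EpiLC replicate 2 or EpiLC replicate 3, at -0.77 to -0.62, and in the fit of only the 6 samples, at -0.92. *Hormad1*, a meiotic chromosome axis gene, was not called (186, 86.2 and 89.0 against 184, 103 and 117). In the fit of EpiSCs against EpiLCs, in which 27.0% of genes tested were called lower and 21.5% higher, 28 of the 30 were lower and 1, *Tdrkh*, was higher, with a median of -6.80. These 2 comparisons share the EpiLC samples.

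**Figure D5:**
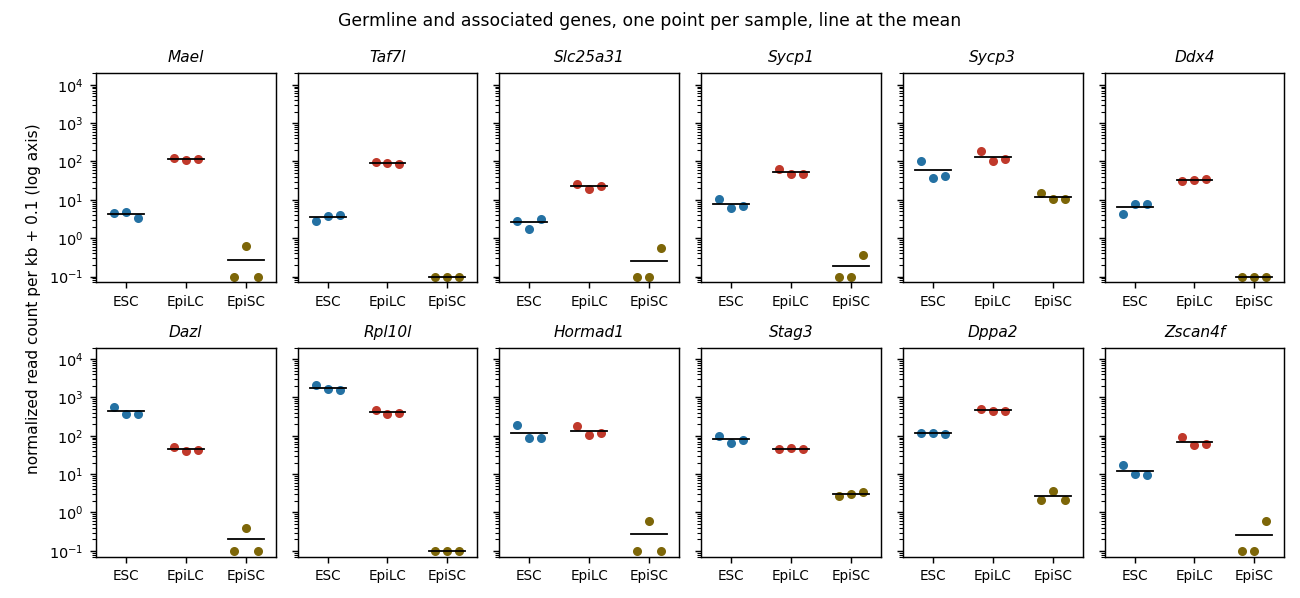
Normalized read count per kb + 0.1 on a log axis for 10 germline genes, *Dppa2* and *Zscan4f* in ESCs, EpiLCs and EpiSCs, with 1 point per sample and a line at the mean of 3. *Mael* and *Taf7l* lie highest in EpiLCs, *Dazl* and *Rpl10l* lie highest in ESCs, and every panel is lowest in EpiSCs.

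The promoters of these genes were read from RefSeq (GRCm38.p6) as the 250 bases before each gene's start. Of the 30 genes, 26 had at least one such window, and 12 of them (46.2%) held the E-box CACGTG, which reads the same on both strands, against 6.86% of 27025 genes with a window and 9.69% of the 11848 tested genes with a window. Of the genes called higher in EpiLCs 9.33% held it, and of those called lower 9.86%. Within the germline list the E-box was found in 8 of 15 genes called higher, in 1 of 4 called lower and in 3 of 7 not called, and the median log2 fold change was 2.20 over the 12 with an E-box and 0.95 over the 14 without. A match is a description of the letters and not evidence of binding. The windows of 5 genes that rose are printed with the E-box in capitals, to show how it sits among otherwise different sequences, beside that of *Dazl*, which fell and holds none. These windows were picked and do not stand for the list. *Sycp2* (4.54), *Tdrkh* (3.94) and *Zcwpw1* (2.25) rose without an E-box, and *Stag3* holds one and fell (-0.80).
Mael (chr1:166238745-166238994, minus strand): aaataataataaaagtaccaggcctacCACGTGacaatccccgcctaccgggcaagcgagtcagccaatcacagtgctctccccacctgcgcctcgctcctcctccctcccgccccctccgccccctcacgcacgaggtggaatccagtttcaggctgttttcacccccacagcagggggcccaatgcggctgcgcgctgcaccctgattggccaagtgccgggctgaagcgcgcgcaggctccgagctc
Taf7l (chrX:134476491-134476740, minus strand): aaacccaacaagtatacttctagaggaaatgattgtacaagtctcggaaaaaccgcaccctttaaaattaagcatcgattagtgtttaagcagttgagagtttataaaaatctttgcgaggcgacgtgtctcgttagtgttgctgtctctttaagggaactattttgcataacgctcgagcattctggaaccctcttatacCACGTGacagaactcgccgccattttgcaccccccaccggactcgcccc
Slc25a31 (chr3:40708621-40708870, plus strand): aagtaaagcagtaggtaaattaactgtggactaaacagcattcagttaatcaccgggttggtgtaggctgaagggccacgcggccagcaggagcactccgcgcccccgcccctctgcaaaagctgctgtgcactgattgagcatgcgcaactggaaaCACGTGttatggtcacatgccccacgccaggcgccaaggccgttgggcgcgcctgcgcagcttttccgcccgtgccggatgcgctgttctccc
Sycp1 (chr3:102936101-102936350, minus strand): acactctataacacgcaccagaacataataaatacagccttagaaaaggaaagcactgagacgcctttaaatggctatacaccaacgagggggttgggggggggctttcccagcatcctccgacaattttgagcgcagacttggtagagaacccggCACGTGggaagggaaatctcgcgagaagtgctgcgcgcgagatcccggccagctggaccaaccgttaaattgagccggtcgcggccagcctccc
Sycp3 (chr10:88459337-88459586, plus strand): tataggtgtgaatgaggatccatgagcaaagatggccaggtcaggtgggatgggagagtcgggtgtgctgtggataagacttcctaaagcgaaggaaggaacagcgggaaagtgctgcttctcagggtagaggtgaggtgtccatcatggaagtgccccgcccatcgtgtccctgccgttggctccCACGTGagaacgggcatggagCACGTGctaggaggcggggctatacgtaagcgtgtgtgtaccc
Dazl (chr17:50293621-50293870, minus strand): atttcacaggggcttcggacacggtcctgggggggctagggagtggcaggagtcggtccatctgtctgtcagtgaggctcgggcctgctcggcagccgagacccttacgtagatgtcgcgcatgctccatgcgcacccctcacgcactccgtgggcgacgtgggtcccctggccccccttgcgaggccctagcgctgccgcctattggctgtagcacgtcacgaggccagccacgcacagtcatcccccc

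The E-box began 223 bases before the start in *Mael*, 49 in *Taf7l*, 93 in *Slc25a31* and 94 in *Sycp1*, and *Sycp3* held 2, at 64 and 43 bases before the start.

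Genes that mark the two-cell embryo and a rare state of ESC cultures were counted at low levels. Of 21 listed, 18 were tested, of which 10 were called higher, none lower and 8 were not called, against 28.7% higher and 26.6% lower over all genes tested. Their median was 2.22 (2.11 with members lacking ESC counts at their bound). In the fit of only the 6 samples compared, 6 were called higher. *Zscan4c* went from 12.1, 7.16 and 9.80 to 58.4, 41.2 and 37.6 (2.27 ± 0.32, adjusted p = 5.5e-06) and *Zscan4f* from 17.1, 10.1 and 9.11 to 93.8, 56.0 and 59.5 (2.59 ± 0.33). The *Zscan4* genes are near-identical and a fragment that maps to several of them was counted at each, so that they are not independent. *Tmem92* had no ESC count and EpiLC levels of 1.58, 0.809 and 1.96, at least 2.32-fold higher. Of the 18 genes, 17 were lower in EpiSCs than in EpiLCs. Bulk counts cannot tell a few cells with high levels from many cells with low ones.

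Genes used to specify primordial germ cells were lower in EpiLCs, 8 of 10, with 1 higher and 1 not called, against 26.6% lower and 28.7% higher over all genes tested. Besides *Prdm14* and *Tfap2c*, *Prdm1* (Blimp1) fell from 16.1, 18.01 and 17.5 to 3.37, 5.64 and 4.09 (-1.95 ± 0.24), *Nanos3* from 100.2, 80.6 and 51.9 to 8.75, 4.79 and 2.32 (-3.84 ± 0.47), the receptor gene *Kit* from 468, 279 and 305 to 10.2, 11.4 and 12.0 (-4.95 ± 0.30, adjusted p = 7.3e-11) and *Ifitm1* 19.7-fold. The RNA-binding gene *Dnd1* was the one called higher (31.8, 19.3 and 16.6 against 70.9, 50.6 and 60.3, 1.47 ± 0.35, adjusted p = 0.0014).

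Imprinted genes were more often higher in EpiLCs, 19 of 32 tested, with 3 lower and 10 not called and a median of 0.90. Among all genes tested, 28.7% were called higher and 26.6% lower. *Mest* rose from 74.4, 57.5 and 65.6 to 614, 578 and 579 (3.18 ± 0.14, adjusted p = 7.5e-13), *Snrpn* from 296, 319 and 337 to 1805, 1604 and 1718 (2.43 ± 0.15), *H19* from 18.3, 5.40 and 13.2 to 112, 104 and 97.9 (3.17 ± 0.50, adjusted p = 3.3e-05) and *Phlda2*, a growth restrainer of the placenta, 7.33-fold. *Magel2* had 3 fragments over the ESC group and EpiLC levels of 13.5, 15.5 and 9.71, a ratio of 45.6 (95% interval 15.3 to 223), and *Dlk1* went from 1.74, 0.206 and 0 to 9.19, 13.6 and 13.1 (4.59 ± 0.63). *Plagl1* fell from 219.6, 164 and 169 to 4.29, 4.41 and 4.38 (-5.38 ± 0.18, adjusted p = 2.6e-14), and *Igf2r* (-1.29 ± 0.28) and *Usp29* (-0.99 ± 0.18) also fell. *Peg3*, a paternally expressed zinc finger gene, was not called (49.4, 60.5 and 57.0 against 50.04, 62.9 and 60.9). Allele-specific counts were not analysed here.

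Antigen presentation genes rose, with the highest median of the lists, 3.47. Of 13 tested of 14, 11 were called higher, 2 were not called and none was lower. The classical class I genes *H2-K1* (23.4, 18.3 and 18.4 against 284, 283 and 259, 3.81 ± 0.21, adjusted p = 1.5e-11) and *H2-D1* (26.7, 15.8 and 16.0 against 112, 106 and 83.8, 2.42 ± 0.21) rose, and as near-identical *H2* genes share fragments their values are not independent. The immunoproteasome genes rose with them, *Psmb10* from 53.1, 39.6 and 40.6 to 557, 409 and 486 (3.47 ± 0.19, adjusted p = 1.5e-11), *Psmb8* to 38.01, 29.8 and 32.5 with a ratio of 68.2 (95% interval 23.1 to 333), and *Psmb9* to 13.9, 12.6 and 8.48, with a ratio of 48.3 (95% interval 13.1 to 403). The peptide transporter genes *Tap1* (3.24, 1.70 and 2.24 against 16.5, 19.4 and 21.7, 3.06 ± 0.31) and *Tap2* (0, 0.308 and 0.885 against 15.6, 19.9 and 13.3, 5.05 ± 0.55) and the trimming peptidase gene *Erap1* (3.69 ± 0.34) did so too. *B2m*, the shared light chain, did not pass the test (204, 85.3 and 101 against 122, 77.2 and 94.6, adjusted p = 0.35).

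Among metabolic genes, those that handle lactate, pyruvate and glucose uptake were led by a lactate exporter. Of 29 glycolysis and pyruvate genes, 13 were called higher, 9 lower and 7 were not called, against 28.7% higher and 26.6% lower over all genes tested. The lactate exporter gene *Slc16a3* (MCT4) rose from 20.7, 17.7 and 17.2 to 921, 1069 and 894 (5.71 ± 0.20, adjusted p = 3.8e-14), and *Pdk1*, the kinase that shuts off pyruvate dehydrogenase, from 7.34, 9.13 and 6.45 to 185, 218 and 231 (4.79 ± 0.17, adjusted p = 5.3e-14). *Slc2a1* (GLUT1) rose from 787, 594 and 617 to 1840.3, 2178 and 1842 (1.56 ± 0.18) while *Slc2a3* (GLUT3) fell from 1484, 1210.4 and 1311 to 218, 342 and 267 (-2.27 ± 0.25). The hexokinase genes fell, *Hk1* 5.33-fold and *Hk2* 1.68-fold, and *Ldha* rose 3.57-fold against a 1.91-fold fall of *Ldhb*. *Ldha* was lowest in replicate 1 of both groups (1072, 2059 and 1708 against 4978, 5989 and 6291), and so were *Pgk1* and *Tpi1*. *Gapdh* (16439, 15524 and 14115 against 27090.0, 19426 and 19720.4) and *Pkm* (3408, 8592 and 7926 against 8913, 12288 and 12564) were not called. *Pkm* was called higher without ESC replicate 2 (1.0), with the replicate block (0.84, adjusted p = 0.0060) and by DESeq2 (0.76), and *Gapdh* by DESeq2 (0.52, adjusted p = 0.034) and with at least 10 counts in every sample (0.57). Of 14 genes of threonine, glycine and serine metabolism, 7 were called higher and 5 lower; beside the fall of *Tdh*, the serine synthesis genes *Phgdh* (234, 302 and 298 against 859, 818 and 857, 1.60 ± 0.16) and *Psph* (0.88 ± 0.15) and the mitochondrial folate gene *Mthfd2* (1.17 ± 0.16) rose. Of 20 sterol and fatty acid genes 12 were called higher and none lower. The 12 held sterol pathway enzymes such as *Idi1* (1.84 ± 0.15), *Lss* (31.0, 42.4 and 37.95 against 116, 143 and 134, 1.82 ± 0.14), *Cyp51* (1.81 ± 0.17) and *Sqle* (1.5 ± 0.13). The fatty acid genes *Fasn* (520.2, 817 and 885 against 451, 619 and 634) and *Acly* were not called, but both were called lower without ESC replicate 1 (-0.59 and -0.56).

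Of 20 tested cadherin and epithelial-mesenchymal genes of 21, 7 were called higher and 6 lower, near the 28.7% and 26.6% called over all genes tested, so the count is no result about the list. *Esrp1*, an epithelial splicing regulator, rose from 0.625, 0.369 and 1.06 to 86.7, 129.8 and 125 (7.32 ± 0.26, adjusted p = 6.5e-14), *Cldn7* from 8.09, 7.77 and 6.30 to 154, 175 and 125 (4.37 ± 0.25) and *Epcam* 2.52-fold. Among mesenchymal genes, *Vim* (811, 734 and 709 against 116, 106 and 116, -2.73 ± 0.17), *Zeb1* (7.59, 12.4 and 11.7 against 0.229, 0.700 and 0.635, -4.29 ± 0.32), *Snai1* (-1.96 ± 0.23) and *Fn1* (785, 642 and 660.0 against 55.2, 77.3 and 68.2, -3.37 ± 0.28) fell. Not all called members are named and 7 were not called, so these values describe single genes and no shift of the list. *Vim*, *Zeb1* and *Snai1* were higher in EpiSCs than in EpiLCs (2.87 ± 0.17, 4.50 ± 0.31 and 3.16 ± 0.22). E-cadherin, *Cdh1*, was not called (1250.1, 789 and 844 against 915, 964 and 849). Of 21 basement membrane genes 11 were called lower and 6 higher, with a median of -1.36. *Nid1* fell from 428, 354 and 359 to 3.63, 9.22 and 5.49 (-5.91 ± 0.31, adjusted p = 9.8e-12), *Lama1* from 177, 126 and 132 to 5.83, 6.97 and 5.06 (-4.58 ± 0.27) and *Lamc1* 4.83-fold. The integrin genes *Itga3* (1.91 ± 0.23) and *Itga5* (1.19 ± 0.25) rose, as did *Col18a1* (1.47 ± 0.22).

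Listed G1 genes, which mix cyclins with CDK inhibitors, were lower more often than higher, and their count does not measure cycling. Of 16 G1 genes 9 were called lower and 3 higher. Over all genes tested, 28.7% were called higher and 26.6% lower, the shares to hold beside each list count in this paragraph. *Cdkn1a* (p21) fell from 942, 1339 and 1392 to 219, 238 and 265 (-2.34 ± 0.18, adjusted p = 2.2e-09) and *Ccnd3* 4.88-fold, and *Ccne1* rose from 268, 292 and 251 to 770.4, 789.9 and 838 (1.57 ± 0.14). Of 8 genes of LIN28 and oncofetal RNA-binding, 3 were called higher, the LIN28 genes and *Hmga1* (0.94 ± 0.23), and 3 lower, *Igf2bp2*, *Igf2bp3* and *Hmga2* (-0.93 ± 0.11, -0.95 ± 0.18 and -1.06 ± 0.23). In the MYC network, with 11 of 12 tested, 3 were called higher and 6 lower. Only 1 was called higher without ESC replicate 2, ESC replicate 3 or EpiLC replicate 1. The same held without replicate 1 of both groups and without the filter on low counts. *Myc* went from 8.54, 10.1 and 7.26 to 234, 208 and 210.0 (4.65 ± 0.25, adjusted p = 1.1e-11), *Mycl* fell 2.93-fold and the antagonist genes *Mnt* and *Mxi1* fell 2.19-fold and 2.05-fold. Of 15 tested BCL2 family genes 8 were called higher and 4 lower. The BH3-only death genes *Pmaip1* (Noxa, 35.0, 26.4 and 29.9 against 696, 538 and 579, 4.33 ± 0.15, adjusted p = 3.3e-14), *Bcl2l11* (Bim, 4.41, 8.99 and 9.45 against 34.1, 46.6 and 50.6, 2.48 ± 0.22) and *Bmf* (1.39 ± 0.18) rose, and the survival genes divided, with *Mcl1* higher (0.90 ± 0.12) and *Bcl2l1* lower (-1.07 ± 0.15).

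Retinoic acid genes were called higher at 10 of 15 tested and lower at 2, against 28.7% and 26.6% of all genes tested. Without ESC replicate 2, ESC replicate 3, EpiLC replicate 1 or EpiLC replicate 3, 1 was called lower. The same held without replicate 1 of both groups, without the filter on low counts and in the fit of only the 6 samples. *Rxrg* had no ESC count and EpiLC levels of 12.6, 12.7 and 15.8, at least 23.7-fold higher. *Crabp2* rose from 37.2, 14.1 and 22.8 to 237, 175 and 189 (3.09 ± 0.27) and the receptor gene *Rarg* from 44.6, 76.8 and 78.2 to 228, 262 and 267 (1.91 ± 0.20), while the synthesis gene *Aldh1a2* fell from 20, 32.4 and 32.5 to 2.04, 2.73 and 4.73 (-3.16 ± 0.33). *Stra8*, a retinoic acid responsive gene counted in the germline list and not in this one, rose from 7.64, 3.23 and 4.95 to 21.8, 13.7 and 18.4 (1.83 ± 0.35).

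The pluripotency microRNA clusters were seen through fragments on their hairpin genes, which come from primary transcripts and do not measure mature microRNAs. These hairpins were chosen after their counts were seen. Mature sequences from RefSeq (GRCm38.p6) are printed with the seed, bases 2 to 8, in capitals, because members of the miR-290 and miR-302 clusters share the seed AAGUGCU.
miR-291a-3p: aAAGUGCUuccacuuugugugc
miR-294-3p: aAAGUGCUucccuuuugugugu
miR-295-3p: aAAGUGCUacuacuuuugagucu
miR-302b-3p: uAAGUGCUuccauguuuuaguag
miR-302d-3p: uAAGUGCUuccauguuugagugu

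*Mir295*, on chromosome 7 with the other members of its cluster, had 31, 24 and 21 fragments in ESCs and 9, 11 and 9 in EpiLCs (-1.82 ± 0.61, adjusted p = 0.016), and *Mir293*, whose seed differs, 68, 44 and 62 and 28, 29 and 14 (-1.74 ± 0.43, adjusted p = 0.0019). *Mir294* (36, 26 and 20 against 16, 16 and 12 fragments) and *Mir291a* (6, 6 and 17 against 3, 12 and 4) were not called. *Mir295* lost its call without ESC replicate 1 (-1.37) or replicate 1 of both groups (-1.42), and *Mir294* was called lower without ESC replicate 3 (-1.67), in the fit of only the 6 samples compared (-1.36) and with the replicate block (-1.31, adjusted p = 0.0083). *Mir302b* had 0, 0 and 0 fragments in ESCs and 1, 0 and 0 in EpiLCs, and *Mir302d* 0, 0 and 0 and 0, 2 and 1. Both fell under the filter and were not tested.

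By the median of its log2 fold changes the X (0.129) lay within the span of the autosomes, -0.07 (chromosome 16) to 0.252 (chromosome 14). Chromosomes 3, 13 and 10 (0.152, 0.146 and 0.144) also lay above the X. Shares of autosomes were not compared, and X-linked genes took a slightly larger share of counts in EpiLCs. The share was 2.57%, 2.50% and 2.53% in ESCs and 2.78%, 2.82% and 2.82% in EpiLCs, a difference of 0.27 percentage points without overlap, with p = 0.10 in a two-sided exact permutation test, the smallest value that 3 against 3 samples can give. *Xist*, the RNA that coats the inactive X, was low in both groups (10.8, 4.74 and 4.29 against 7.87, 5.78 and 5.43, not called) and at 144, 138 and 132 in EpiSCs. Of the 9 genes of X inactivation and of the Y chromosome, 3 were called higher, namely *Jpx* with a ratio of 17.0 (95% interval 2.75 to 701), *Ftx* (4.54 ± 0.44) and *Rlim* (1.11 ± 0.20), and 2 lower, *Tsix* and the Y-linked *Kdm5d*. These counts are near the 28.7% higher and 26.6% lower of all genes tested and are no result about the list. The other listed Y-linked genes, *Ddx3y*, *Eif2s3y* and *Uty*, were not called. *Kdm5d*, named after its values were seen, had 5, 4 and 1 fragments in ESCs and 0, 0 and 1 in EpiLCs, a ratio of ESC to EpiLC of 12.9 (95% interval 1.84 to 562). The count of 2 lower became 0 without ESC replicate 1 or EpiLC replicate 2, and 1 without ESC replicate 2, EpiLC replicate 1, EpiLC replicate 3 or replicate 1 of both groups and in the fit of only the 6 samples. *Tsix*, the antisense gene of *Xist*, was called lower (-0.98 ± 0.36, adjusted p = 0.027), but not without ESC replicate 1 (-0.55), EpiLC replicate 2 (-0.93) or EpiLC replicate 3 (-0.74), and since strand was not used in counting, *Xist* and *Tsix* share fragments where they overlap.

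The 10 highest levels per kb belonged in each group to short or mitochondrial genes, of which 5 were mitochondrial and none longer than 1545 bases of exon. In both groups *Gm23935*, an annotated microRNA gene of 57 bases, came first.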

How the data were processed

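Total RNA was enriched for polyA, made into directional libraries (NEBNext Ultra Directional) and sequenced in pairs, as the labels and the study's methods state. The authors deposited unnormalized fragment counts, obtained by aligning reads to GRCm38/mm10 with TopHat2 and summing them per gene with featureCounts 1.5.0-p1 on Ensembl release 86. Per the file headers, a fragment needed 10 bp of overlap, strand was not used, and fragments overlapping several genes or mapping to several places were counted at each, so that near-identical copies and overlapping antisense genes share fragments. Of 35773 gene IDs, 35514 were given a symbol.

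All 18 samples, grouped by their labels, were fitted together in edgeR 4.0.16 (R 4.3.3, limma 3.58.1) with TMM factors and a robust quasi-likelihood fit, after dropping genes that did not reach 10 counts in 3 or more samples. Two-sided tests of EpiLCs against ESCs were adjusted by Benjamini-Hochberg. Levels used DESeq2 1.42.0 size factors and a pseudocount of 0.1 on the log2 scale, and tables, windows and plots used Python 3.11.15, pandas 2.3.3, scipy 1.17.1 and matplotlib 3.10.9. Total counts ranged from 4961934 to 9906473 over the 6 samples. Folds against a group without counts were set against a floor of 3 counts over that group, and ratios with 1 to 3 counts have exact 95% intervals of counting error only. The fit was tested on simulated data with a single common spread, equal group means and a small set of changed genes. Of genes changed by a log2 fold of 1, 2 and 3, 72.3%, 87.3% and 98.6% were recovered, and 5.46% of calls were false. The simulated data had no replicate standing apart and few changed genes, so these rates cannot be carried over to the samples compared here. Same-numbered EpiLC and ESC samples, numbered by the labels, deviated together (correlations 0.299, 0.110 and 0.131 for replicates 1, 2 and 3), but EpiLC replicate 2 with ESC replicate 3 (0.154) and EpiLC replicate 3 with ESC replicate 2 (0.112) did so as much, and a fit with the number as a block was an alternative.

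Genes named are the 15 strongest in each direction and members of gene lists. The members and lists were chosen with earlier results of these data known, and the lists were not trimmed by their values.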

Additional observations from a re-analysis of the deposited data

How the results depend on the processing

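Counts of genes called in EpiLCs against ESCs kept within 1.5 times of 4845 higher, 4494 lower, 1007 strong higher and 1060 strong lower under DESeq2 (4842, 4564, 1003 and 1071), RLE factors, no filter on low counts, a fit of only the 6 samples and the replicate block (5070, 4652, 1009 and 1059). The replicate block added a call for *Foxd3*, *Tead2*, *Pkm* and *Mir294* and changed no other call of a named gene. Leaving out 1 replicate in turn gave 4226 to 4830 higher, 4008 to 4537 lower, 987 to 1071 strong higher and 1020 to 1094 strong lower, and for EpiSCs against EpiLCs 3112 to 3508 higher and 3918 to 4062 lower. Requiring at least 10 counts in every sample left 10821 genes, of which 2940 were higher, 2936 lower, 272 strong higher and 383 strong lower, and for EpiSCs against EpiLCs 2343 higher and 2469 lower, since genes low in any group of the series were then not tested. This filter also lowered list counts, such as 16 to 2 for germline genes called higher. Leaving out replicate 1 of both groups was chosen after seeing the data. Genes with a few counts in one group are limited by depth, and their folds are bounds or ratios with wide intervals.

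Among named genes that a setting still tested, a call was lost in 30 instances and gained in 20, each in the same direction as before. Named genes dropped by a stricter filter are not in these counts. With at least 10 counts in every sample, naive factors called lower went from 14 to 5 through such drops. A fitted difference changed sign only for 8 named genes that passed the test under none of these settings, and the cause was not tested. *Xist* stood at -0.033 under DESeq2, -0.0 under RLE factors, -0.018 without the filter and -0.017 in the fit of 6 samples, and *Trim71* at 0.024 with 10 counts in every sample. Without replicate 1 of both groups *Cdh1* was at 0.13 and *Cdh2* at -0.007. Leaving out 1 replicate gave -0.233 to 0.48 for *Xist*, -0.066 to 0.017 for *Trim71*, -0.188 to 0.147 for *Cdh1*, -0.213 to 0.356 for *Cdh2*, -0.591 to 0.054 for *B2m*, -0.104 to 0.607 for *Hormad1*, -0.094 to 0.214 for *Lefty2* and -0.025 to 0.143 for *Peg3*.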
